A study of Mus musculus with 17 samples.

Results

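Adipocyte progenitors are the stromal cells of fat from which new adipocytes form, and 10 genes that mark them were followed here in perigonadal white adipose tissue (pWAT), a visceral depot that lies next to the gonads. The genes were *Pdgfra*, *Pdgfrb*, *Dpp4*, *Pi16*, *Ly6a*, *Cd34*, *Icam1*, *F3*, *Dcn* and *Fap*, taken by name as a fixed list and found by Ensembl identifier, and all 10 were among the 55401 genes in the files. In mouse fat these cells are usually described as a series of states. Interstitial progenitors that express *Dpp4* and *Pi16* lie in the connective tissue around the depot and can give rise to committed preadipocytes that express *Icam1*, while a further population, marked by the surface protein CD142 (the product of *F3*), has been described as restraining adipogenesis. *Pdgfra*, *Ly6a* and *Cd34* are found across most of these states, *Dcn* and *Fap* are shared with other fibroblasts, and *Pdgfrb* also marks mural cells of blood vessels.

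The study asked whether loss of the long noncoding RNA *U90926* alters fat. Each library of its RNA-seq set came from 1 mouse. There were 5 females and 3 males that were WT, and 5 females and 4 males that were U9-KO, all C57BL/6J on standard chow. Age at collection was taken as 16 weeks. That age is the one in the methods, but other parts of the study describe measurements of the cohort at later ages, so it is uncertain. The cohort went through a phenotyping screen that included food withdrawal, glucose injection and anaesthesia. Which of these the sequenced mice underwent is not stated. U9-KO mice are homozygous for a germline deletion of all exons of *U90926* in every cell, and WT mice are littermates from the same heterozygous crosses, as the methods describe the cohort. Groups are written WT F, U9-KO F, WT M and U9-KO M, with the mouse number of the sample label after them.

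*U90926* itself had a normalized count of 1 in WT F 3 and in WT M 2 and of 0 in the other 15 mice, so its counts do not check the genotype labels. The values are normalized counts, in which the reads counted for a gene have been scaled by a size factor of the library. They summed to between 20243688 and 28620744 per mouse, and the number of reads behind them is unknown. *Adipoq*, the adipocyte hormone gene used to check the tissue, had between 27618 and 72328 normalized counts in all 17 mice. Some female libraries also carried RNA of the reproductive tract. The summed level of 10 ovary and oviduct markers was between 2891 and 89473 in females, with the highest values in U9-KO F 1 and in WT F 4 (74832), and between 184 and 336 in males. The 8 epididymis markers summed to between 0 and 5 in males. The main results that use females are therefore also given without U9-KO F 1 and WT F 4, a choice made after the data were seen. In whole tissue, fewer cells of a type and less RNA per cell cannot be told apart.

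**Figure D1:**
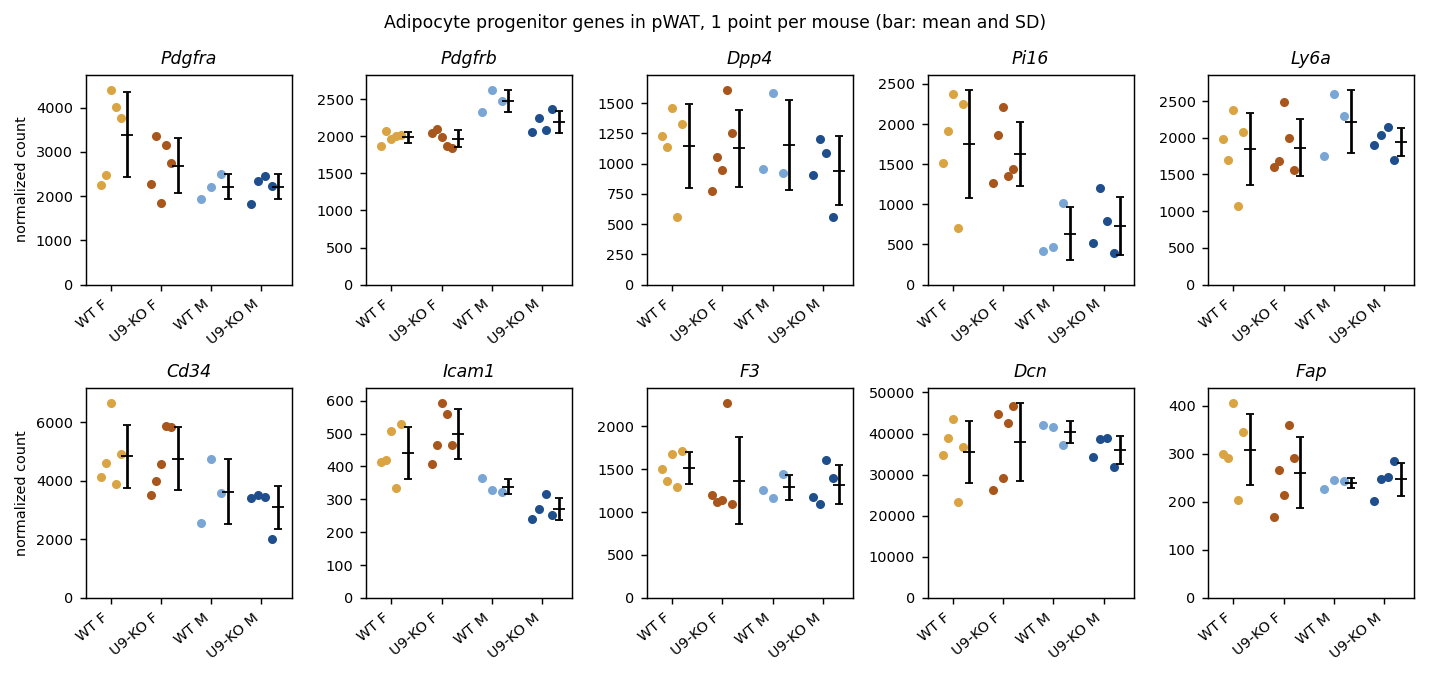
Normalized count of each of the 10 progenitor genes (vertical axes, from 0) in each mouse, by group, with the group mean and SD beside the points. The *Pdgfrb* points of the females lie close together, between 1839 and 2103. In these values, which seem to be scaled within each sex, *Pi16* lies lower in males (393 to 1205) than in all females but WT F 4 (711).

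Per length of annotated exon, the levels of the 10 genes covered a wide range, and their order was nearly the same in the 4 groups. *Dcn*, which encodes the collagen-binding proteoglycan decorin, came first at 6083 ± 1290 normalized counts per kb in WT F and 6907 ± 455 in WT M (SD, n = 5 and 3), and by mean normalized count it ranked 42 of the 31227 genes detected in WT F. *Ly6a*, the gene of the stem cell antigen Sca-1, came next at 1529 ± 408 per kb in WT F, and *Fap*, a membrane serine protease of activated fibroblasts, came last at 54.5 ± 13.2. Between them in WT F were *Cd34* (663 ± 149), *F3* (598 ± 73.3), *Pdgfrb* (363 ± 14.0), *Pdgfra* (338 ± 95.3), *Pi16* (275 ± 106), *Dpp4* (181 ± 55.0) and *Icam1* (101 ± 18.0), in normalized counts per kb (SD, n = 5). The per-mouse ranges of *Cd34* and *F3* overlapped, as did those of *Ly6a* and *Cd34* and all neighbours from *Pdgfrb* down to *Icam1*, whereas *Dcn* stood apart from *Ly6a*, *F3* from *Pdgfrb* and *Icam1* from *Fap*. In WT M the order differed at 2 places, each between neighbours with overlapping ranges. *F3* (510 ± 57.6 per kb) was ahead of *Cd34* (498 ± 151), and *Dpp4* (183 ± 59.0) was ahead of *Pi16* (99.8 ± 51.8, SD, n = 3).

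The receptors for platelet-derived growth factor differed in how steady they were from mouse to mouse. *Pdgfra*, the alpha receptor that defines adipose fibroblasts and progenitors (ENSMUSG00000029231, plus strand of chromosome 5, 75152292 to 75198215 on GRCm38), had normalized counts of 2263, 2485, 4398, 4021 and 3776 in WT F and of 2282, 3366, 1856, 3166 and 2757 in U9-KO F. In males it had 1938, 2210 and 2492 in WT and 1822, 2345, 2459 and 2234 in U9-KO. The groups overlapped in both sexes, and the 3 highest females were WT F 3, 4 and 5. The log2 fold change of U9-KO over WT was -0.32 (SE 0.22, 95% interval -0.80 to 0.16, adjusted p = 1 in limma's test) in females and -0.00044 (SE 0.12, interval -0.26 to 0.26, adjusted p = 0.999) in males.

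*Pdgfrb*, the beta receptor (ENSMUSG00000024620, plus strand of chromosome 18, 61045150 to 61085061), had between 1839 and 2103 normalized counts in the 10 females, the narrowest relative range of the members. Its means were 1986 ± 76.8 in WT F and 1966 ± 113 in U9-KO F (SD, n = 5 each). In males it had 2324, 2621 and 2481 in WT and 2062, 2248, 2088 and 2373 in U9-KO. Only U9-KO M 4 overlapped the WT males, yet the difference did not pass the test (log2 fold change -0.18, SE 0.08, interval -0.35 to 0.0021, adjusted p = 0.654 in limma's test). In females the interval of the log2 fold change was -0.17 to 0.14, or 0.887-fold to 1.10-fold.

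Of the genes of interstitial progenitors, *Dpp4* encodes a serine peptidase of the cell surface (ENSMUSG00000035000, minus strand of chromosome 2, 62330073 to 62412231). It had 1228, 1140, 1462, 559 and 1324 normalized counts in WT F and 773, 1053, 944, 1607 and 1249 in U9-KO F. In males it had 953, 1585 and 926 in WT and 909, 1207, 1090 and 560 in U9-KO. The lowest mouse of each sex, WT F 4 and U9-KO M 4, thus belonged to different genotypes, and the groups overlapped. The log2 fold changes were 0.0051 (SE 0.26, interval -0.57 to 0.58) in females, or -0.11 without U9-KO F 1 and WT F 4, and -0.31 (SE 0.26, interval -0.89 to 0.28) in males. The male value rested on single mice, at -0.054 without WT M 2 and -0.075 without U9-KO M 4.

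*Pi16*, a secreted or membrane-bound peptidase inhibitor family member whose expression marks fibroblasts of connective tissue (ENSMUSG00000024011, plus strand of chromosome 17, 29317680 to 29330593), had 1510, 1918, 2372, 711 and 2250 normalized counts in WT F and 1271, 1863, 2211, 1356 and 1444 in U9-KO F. In males it had 417, 474 and 1014 in WT and 513, 1205, 798 and 393 in U9-KO. In these values, which seem to have been scaled within each sex, WT F 4 was the 1 female inside the male range. On the scale common to both sexes used below, U9-KO F 1 (1216) also lay under the male maximum of 1251. The genotypes overlapped in both sexes, with log2 fold changes of -0.020 (SE 0.30, interval -0.67 to 0.63) in females and 0.18 (SE 0.39, interval -0.68 to 1.04) in males. In females it was -0.23 without U9-KO F 1 and WT F 4. These were the widest intervals of the 10 genes, and in males the interval runs up to 2.06-fold.

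*Cd34*, a sialomucin of progenitors and endothelium (ENSMUSG00000016494, plus strand of chromosome 1, 194938819 to 194961279), had 4134, 4607, 6638, 3878 and 4899 normalized counts in WT F and 3511, 3975, 4553, 5883 and 5822 in U9-KO F. In males it had 2547, 4746 and 3592 in WT and 3408, 3513, 3432 and 1999 in U9-KO. The U9-KO M group was tight apart from U9-KO M 4, and the genotypes overlapped in both sexes. Its log2 fold changes were -0.028 (SE 0.18) in females and -0.22 (SE 0.23) in males, where it was -0.0068 without WT M 2, -0.027 without U9-KO M 4 and -0.46 without WT M 1. *Ly6a* (ENSMUSG00000075602, minus strand of chromosome 15, 74994877 to 74998031) had 1842 ± 491 in WT F and 1865 ± 389 in U9-KO F (SD, n = 5 each), and 2218 ± 431 in WT M and 1945 ± 192 in U9-KO M (SD, n = 3 and 4). Its groups overlapped as well, and since *Ly6a* has close relatives in the Ly6 family, reads shared with them may have been split or lost in counting.

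*Icam1*, an adhesion molecule that marks committed preadipocytes and is also made by endothelium and leukocytes (ENSMUSG00000037405, plus strand of chromosome 9, 21015985 to 21028817), had 413, 421, 508, 334 and 528 normalized counts in WT F and 408, 464, 592, 560 and 466 in U9-KO F. In males it had 366, 328 and 322 in WT and 239, 272, 316 and 252 in U9-KO. It was the only member whose genotype groups did not overlap, in males, as did those of 7.60% of the 21930 genes tested there. The log2 fold change in males was -0.33 (SE 0.12, interval -0.60 to -0.07, adjusted p = 0.614 in limma's test), so it was not called. In females it was 0.18 (SE 0.15, interval -0.14 to 0.50, adjusted p = 1). The difference between the male and the female effect was -0.51 (SE 0.21, interval -0.95 to -0.08, adjusted p = 1). In males the 8 leukocyte markers moved alongside. Their summed level was between 15734 and 26411 in WT M and between 11239 and 14573 in U9-KO M, and all 8 had a log2 fold change below 0, of which 4 had an unadjusted p under 0.05 and 0 were called. Of all genes tested in males, 7.60% had an unadjusted p under 0.05 and 50.1% a log2 fold change above 0. In females 5 of the 8 leukocyte markers were below 0. Of the 8 endothelial markers, 6 were below 0 in males, 1 of the 8 had an unadjusted p under 0.05 there, and 0 were called. In females all 8 endothelial markers were above 0, as were 50% of all genes, and 0 were called. The part of leukocytes and endothelium in the *Icam1* values was not tested.

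The promoters of *Dpp4* and *Icam1* are shown because these genes lie at the interstitial and the committed end of the progenitor series and their windows hold no annotated exon. The RefSeq promoter table used here gave a window for 6 of the 10 members. Each sequence is the 250 bases before the RefSeq start on GRCm38.p6, at chr2:62412232-62412481 on the minus strand for *Dpp4* and at chr9:21015690-21015939 on the plus strand for *Icam1*, with capitals at matches to the motifs searched.
Dpp4: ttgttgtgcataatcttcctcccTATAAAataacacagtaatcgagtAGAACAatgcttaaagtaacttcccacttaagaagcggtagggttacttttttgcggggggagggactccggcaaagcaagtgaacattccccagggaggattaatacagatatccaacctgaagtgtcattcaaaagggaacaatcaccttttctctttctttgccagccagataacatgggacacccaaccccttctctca
Icam1: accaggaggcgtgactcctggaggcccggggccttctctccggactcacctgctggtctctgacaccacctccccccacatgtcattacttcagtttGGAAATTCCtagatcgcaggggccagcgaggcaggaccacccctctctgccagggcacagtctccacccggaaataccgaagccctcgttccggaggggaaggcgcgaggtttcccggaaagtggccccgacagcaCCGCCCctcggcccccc
The search, on both strands, was for the core promoter motif TATAAA, the upstream motif CCAAT (nuclear factor Y), the motif GGGCGG (Sp1), an NF-kB site (GGAAATTCC), the AP-1 site TGANTCA, the oestrogen receptor motif AGGTCA and the androgen and glucocorticoid receptor motif AGAACA, and no matches overlapped in these windows. The *Icam1* window held the NF-kB letters 153 bases before the start, which 0.286% of 32851 promoters of this length hold, and GGGCGG on the other strand (32.7%). The *Dpp4* window held TATAAA (12.4%) far from the start, 227 bases before it, and AGAACA (16.1%). The *Icam1* window was richer in G and C, 65.2% against 43.6% for *Dpp4* and a median of 52.4%. A match of letters is a description and does not show that a factor binds there. The NF-kB letters are a single exact form of that site, and the motifs were chosen with earlier results known. Their low share is therefore no measure of how unlikely the match was.

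*F3*, which encodes tissue factor, the initiator of blood coagulation (ENSMUSG00000028128, plus strand of chromosome 3, 121723537 to 121735048), had between 1294 and 1713 normalized counts in WT F. In U9-KO F it had 1197, 1114, 1138, 2266 and 1097. The mean of U9-KO F was raised by U9-KO F 4 alone, the other 4 mice all lying below the lowest WT female, and the log2 fold change over all 10 females was -0.20 (SE 0.19, interval -0.62 to 0.21). Without U9-KO F 4 it was -0.40 (adjusted p = 0.872 in limma's test), with an unadjusted p under 0.05. In males *F3* had 1288 ± 146 in WT and 1318 ± 229 in U9-KO (SD, n = 3 and 4). *Dcn* (ENSMUSG00000019929, plus strand of chromosome 10, 97479609 to 97518143) had log2 fold changes of 0.08 (SE 0.22) in females and -0.17 (SE 0.12) in males.

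*Fap* (ENSMUSG00000000392, minus strand of chromosome 2, 62500943 to 62574075) had the second lowest female log2 fold change of the 10, at -0.26 (SE 0.22, interval -0.75 to 0.23), and 0.04 (SE 0.13) in males. It lies 88711 bases from *Dpp4* on the same strand, with *Gcg* and the noncoding genes *Gm13564* and *Gm13565* between them, none of which had a mean above 0.235 normalized counts. The annotated antisense genes that overlap *Pdgfra*, *Dpp4*, *Pi16*, *Cd34* and *Icam1* had means of at most 55.7 (*Gm16897*, opposite *Cd34*).

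Taking the list together, limma called 0 of 10 members at an adjusted p under 0.05 between U9-KO and WT females, against 0% of the 24825 genes tested, and 0 of 10 in males, against 0% of 21930. The study itself, with DESeq2 and the same cutoff, found no differentially expressed genes when both sexes were analysed together. It did report some within each sex, none of them shared by the sexes. The absence of calls here thus does not show that no gene differs. At an unadjusted p under 0.05 there were 0 members in females, against 2.23% of all genes, and 1, *Icam1*, in males, against 7.60%. Groups did not overlap for 0 members in females (0.238% of all genes) and for 1 in males (7.60%). The median log2 fold change of the members was -0.02 in females, with 4 above and 6 below 0, and -0.17 in males, with 3 above and 7 below, while over all genes 50% and 50.1% were above 0. The effect of genotype did not differ between the sexes for any member at an adjusted p under 0.05 (0 of 10, against 0% of 26289 genes), and *Icam1* was the 1 member with an unadjusted p under 0.05 (3.46% of all genes). The counts at an unadjusted p under 0.05 moved with single mice. In females there was 1 (*F3*) without U9-KO F 4, where 1225 of 24492 genes had such a p. In males there were 0 without U9-KO M 1 (1179 of 21400 genes). There were 2, *Icam1* and *Pdgfrb*, without U9-KO M 4 (1448 of 21491 genes). Without WT M 1 there were also 2, *Pdgfrb* and *Ly6a*, but 3345 of 21467 genes had such a p there. For the difference between the sexes there were 0 without WT M 1 (1041 of 26138 genes). Without U9-KO F 4 there were 2 (1035 of 26068 genes). Without U9-KO F 1 and WT F 4, again 0 members were called in females, and the log2 fold changes of *Pdgfra*, *Pdgfrb*, *Ly6a*, *Cd34* and *Icam1* were -0.19, -0.025, -0.087, 0.00031 and 0.15, while those of *F3*, *Dcn* and *Fap* were -0.23, 0.062 and -0.25.

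**Figure D2:**
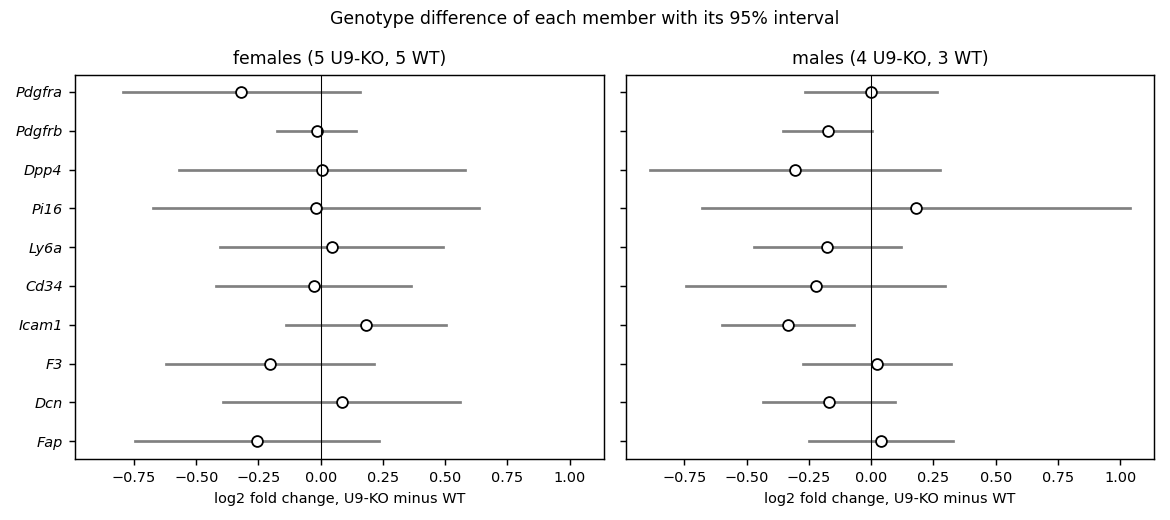
Log2 fold change of U9-KO over WT (horizontal axis) for each progenitor gene in females (left) and males (right), with its 95% interval from limma as a line. All intervals but that of *Icam1* in males include 0, and open points mark that no gene had an adjusted p under 0.05.

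The related gene lists also held no genotype call. The ligands of the PDGF receptors had log2 fold changes between -0.22 and 0.10 in females and between -0.12 and -0.05 in males. Of 10 other genes of interstitial progenitors, 8 of committed preadipocytes, 8 of CD142+ cells, 10 of fibroblast matrix and 8 of the mesenchymal surface, limma called 0 at an adjusted p under 0.05 in either sex. At an unadjusted p under 0.05 there were 0 in each list in females, and 1, 1, 2, 1 and 1 in males, in that order, against 2.23% and 7.60% of all genes. In males the median log2 fold change was -0.14 for the interstitial genes, 0.10 for the preadipocyte genes and -0.29 for the CD142+ cell genes. Of these lists, 8 of 10, 1 of 8 and 7 of 8 genes were below 0, in that order. So were 9 of 10 fibroblast matrix and 6 of 8 mesenchymal surface genes, while 50.1% of all genes were above 0.

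Single mice stood low or high for several members at once, in both genotypes. WT F 4 was the lowest of the 10 females for 5 members (*Dpp4*, *Pi16*, *Ly6a*, *Icam1* and *Dcn*), and it was the female with the lowest sum of adipocyte markers and the second highest of ovary and oviduct markers. U9-KO F 1, highest in ovary and oviduct markers, was lowest for *Cd34* and *Fap*. WT F 3 was highest for 4 members. Among males, U9-KO M 4 was lowest for 5 members (*Dpp4*, *Pi16*, *Ly6a*, *Cd34* and *Dcn*) and had the lowest sum of mesothelial markers, 4013 against 4817 to 8565 in the other 6 males. WT M 2 was highest for 4 members and had the highest leukocyte sum, 26411. How far these other cells set the members' values was not tested. *Pdgfra* did not share the pattern, since WT F 4 had its second highest value among females.

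**Figure D3:**
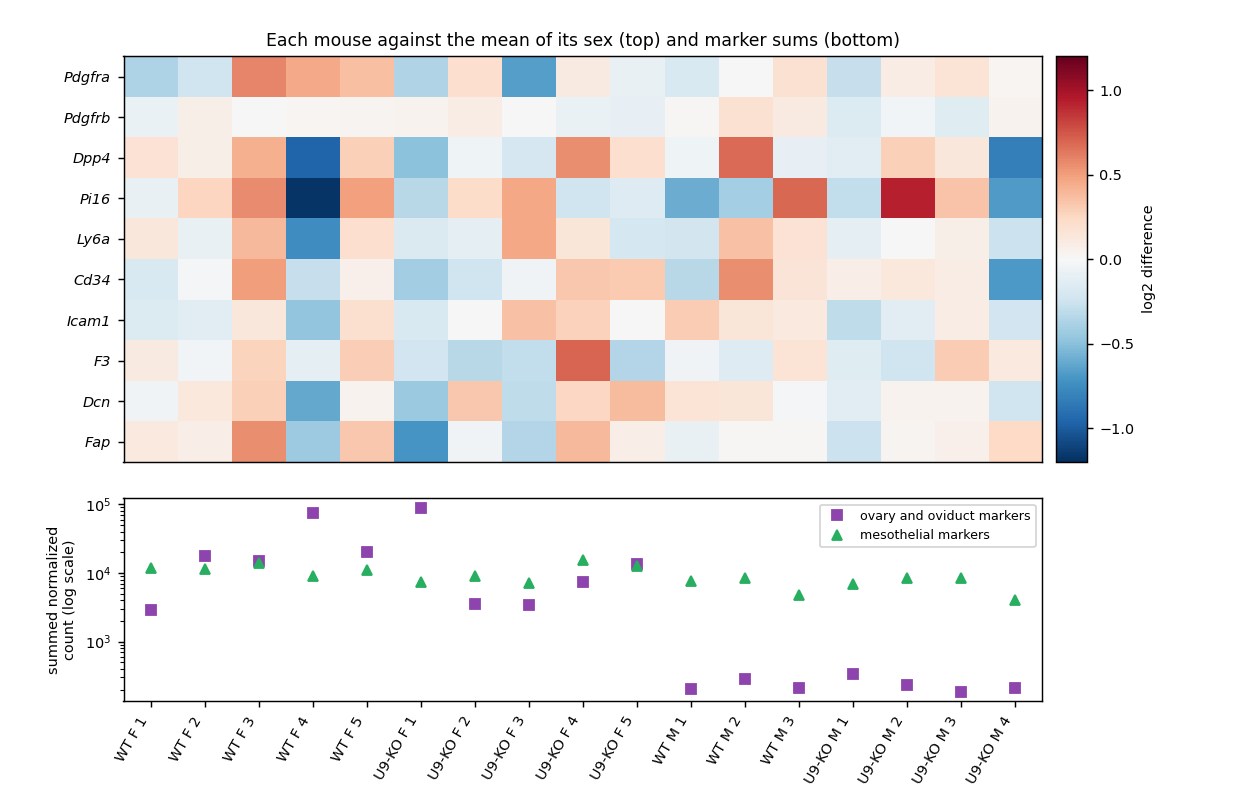
Upper part: log2 difference of each mouse from the mean of its sex for each progenitor gene, from blue (lower) to red (higher). Lower part: summed normalized count of the ovary and oviduct markers (squares) and of the mesothelial markers (triangles) in the same mice, on a log scale. WT F 4 and U9-KO M 4 are each the lowest of their sex for 5 members, and WT F 4 and U9-KO F 1 have the highest ovary and oviduct sums, 74832 and 89473.

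Some members varied together from mouse to mouse. Over the 45 pairs of members, the median Pearson r of the log2 values was 0.476 across the 10 females and 0.234 across the 7 males, as a description only, since the points of a mouse share 1 library. With the pairs of each sex counted apart, 13 had an r above 0.7, 8 in females and 5 in males. A pair above 0.7 in both sexes was counted in each. *Dpp4* was in the most of them, 6 of 13. Its r with *Cd34* was 0.764 in females and 0.898 in males, and its r with *Dcn* was 0.851 and 0.799. With its neighbour *Fap* it had r = 0.884 in females and -0.314 in males. Over the 8 females without U9-KO F 1 and WT F 4, the r of *Dpp4* was 0.930 with *Fap*, 0.728 with *Cd34* and 0.514 with *Dcn*. The pair of *Pi16* and *Ly6a* went from r = 0.855 over 10 females to 0.563 over those 8, and the median of all pairs from 0.476 to 0.204. *Pdgfra* was in none of the 13 pairs with an r above 0.7. Over those 8 females, however, its r with *Fap* was 0.815, against 0.479 over all 10. Among 11512 genes with a mean of at least 100 in both sexes, and outside the lists, those most like *Pdgfra* over all 17 mice were *Lrrc49* (smaller of the female and male r, 0.847), *Pnisr* (0.841), *AI480526* (0.821), *Mapk1ip1* (0.821) and *Gm37090* (0.820).

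Between the sexes the picture was different. Size factors seem to have been set within each sex, so every library was first divided by its median ratio to the geometric mean of all 17. In limma's fit with genotype as a covariate, 4 of 10 members differed between 7 males and 10 females at an adjusted p under 0.05, 1 higher and 3 lower in males. The background was as large, 39.4% of 26077 genes, with 16.8% higher and 22.6% lower in males, so this count says nothing particular to the list. The median over all genes was -0.053 on the log2 scale, and it was 0.128 higher after quantile normalization and 0.106 lower with the values as deposited. The direction of the 4 called genes was the same under each of these scalings.

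*Pi16* had the largest sex difference of the members. Rescaled normalized counts ranged from 408 to 1251 in males (mean 717) and from 682 to 2298 in females (mean 1627), and the log2 fold change of males over females was -1.24 (SE 0.26, interval -1.78 to -0.69, adjusted p = 0.000932 in limma's test), a 2.36-fold lower level. Without U9-KO F 1 and WT F 4 it was -1.42. The ratio of *Pi16* to *Dpp4*, which needs no scaling between libraries, had a median of 1.63 in females (0.844 to 2.34) and 0.702 in males (0.299 to 1.10). *Dpp4* itself had a log2 fold change of -0.010 (SE 0.21, interval -0.45 to 0.43) between the sexes, whose sign changed in several fits that left out 1 mouse.

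*Icam1* averaged 312 in males and 452 in females (log2 fold change -0.52, SE 0.12, interval -0.77 to -0.28, adjusted p = 0.00148), with ranges of 250 to 381 and 320 to 559. With only the 8 WT mice the log2 fold change was -0.24 and not called (adjusted p = 0.314). The WT males, at 322 to 366 normalized counts, lay above all U9-KO males. *Cd34* averaged 3466 in males and 4613 in females (log2 fold change -0.42, SE 0.16, interval -0.75 to -0.09, adjusted p = 0.0414). That call was lost when any of 7 mice was left out (WT F 3, WT F 5, U9-KO F 4, U9-KO F 5, WT M 1, WT M 3 or U9-KO M 4), with log2 fold changes between -0.44 and -0.31 and adjusted p between 0.0555 and 0.112.

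*Pdgfrb* was the 1 member called higher in males and the 1 member whose sexes did not overlap, against 11.5% of all genes tested. Its rescaled counts were between 2153 and 2766 in males (mean 2414) and between 1776 and 2029 in females (mean 1901), a log2 fold change of 0.35 (SE 0.05, interval 0.23 to 0.46, adjusted p = 5.007e-05). In the values as deposited the ranges overlapped, from 2062 in males and up to 2103 in females, and the log2 fold change was 0.23 and still called. The median ratio of *Pdgfra* to *Pdgfrb* was 1.55 in females (0.935 to 2.23) and 0.941 in males (0.834 to 1.18). *Pdgfra* at -0.28 (SE 0.15, adjusted p = 0.147) and *Ly6a* at 0.30 (SE 0.14, adjusted p = 0.106) were not called, but both passed when U9-KO F 3 was left out, at -0.36 (adjusted p = 0.0438) and 0.36 (adjusted p = 0.0424). *Pdgfra* also passed with the values as deposited, at -0.40 (adjusted p = 0.0376). *Dcn*, *F3* and *Fap* had log2 fold changes of 0.19, 0.012 and -0.058, and were not called.

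**Figure D4:**
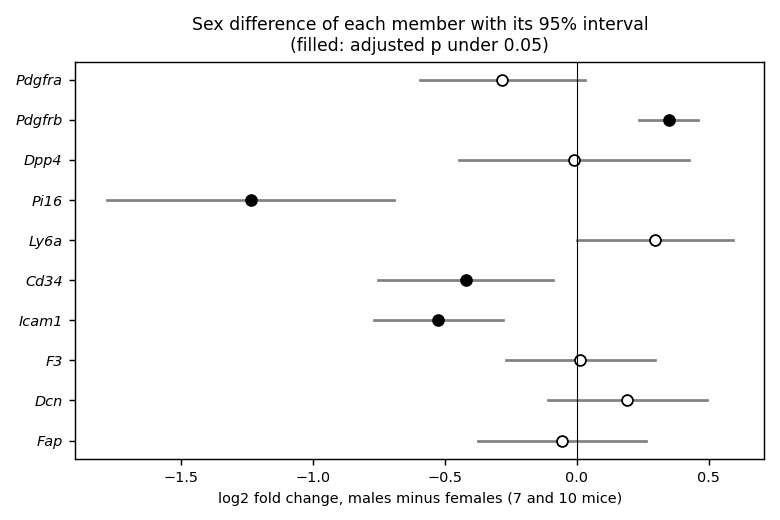
Log2 fold change of males over females (horizontal axis, 7 and 10 mice, genotype as a covariate) for each progenitor gene, with its 95% interval. Filled points had an adjusted p under 0.05. *Pi16*, *Icam1* and *Cd34* lie below 0 and *Pdgfrb* above.

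The marker sums of other cells differed between the sexes too. As a background for the counts of markers, 16.8% of all genes tested were called higher in males and 22.6% lower. All 10 ovary and oviduct markers were lower in males. Of the 8 mural cell markers, 3 were lower and 2 higher in males. On the scale common to both sexes, their sum was between 25058 and 38390 in males and between 36073 and 176246 in females. These ranges overlapped. The sum does not stand for each marker, since 5 had a log2 fold change above 0 and 3 below, with a median of 0.19. Of 8 endothelial markers 5 were higher in males, of 7 mesothelial markers 4 were lower, and of 8 adipocyte markers 5 were higher. The log2 fold changes of the 4 called members without the females richest in ovary and oviduct markers were -1.42 for *Pi16*, -0.61 for *Icam1*, -0.51 for *Cd34* and 0.35 for *Pdgfrb*. The part of mural, mesothelial and adipocyte RNA in these differences was not tested.

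Genes of the wider progenitor lists also differed between the sexes, in both directions. So did 39.4% of all genes tested, with 16.8% higher and 22.6% lower in males. Of the PDGF receptor ligands, *Pdgfa* (-0.68) and *Pdgfd* (-0.59) were lower in males and *Pdgfb* (0.42), which is made by endothelium, was higher, while *Pdgfc* (0.10) was not called. Of the 10 other interstitial progenitor genes 4 were lower and 4 higher. Among the lower were *Wnt2*, a secreted Wnt ligand at -3.50 but with means of only 3.43 and 37.5 normalized counts, *Efhd1* (-1.18) and *Cd55*, an inhibitor of complement (-0.74), and among the higher was *Ly6c1* (0.47). *Sema3c*, the most abundant of that list with *Ly6c1*, was at 0.21 and not called.

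The counts in this paragraph stand against 16.8% of all genes tested called higher in males and 22.6% called lower. Of the 8 genes of committed preadipocytes 6 were higher in males, but *Lpl* (1.50), *Fabp4* (1.13) and *Pparg* (1.16) are also abundant in mature adipocytes. *Ebf2*, a transcription factor of preadipocytes, had a log2 fold change of 1.74, and *Dlk1*, whose product holds preadipocytes undifferentiated, was lower at -2.60. Of the 8 genes of CD142+ cells 5 were lower in males, among them *Igfbp3* (-3.14) and *Mgp*, an inhibitor of calcification (-1.97), and 2 were higher, among them *Gdf10* (1.57). *F3*, which names that population, was at 0.012. In the fibroblast matrix list 4 of 10 were lower and 2 higher, with *Fbln1* (-1.51) and *Lum* (-1.29) lower and *Fmod* (1.63) higher. *Sparc* (0.34) was called higher but had a log2 fold change of -0.05 after quantile normalization, and its call was lost when any of 5 mice was left out (adjusted p between 0.0531 and 0.0825), while *Fn1* (0.24) was not called. The 8 mesenchymal surface genes included *Cd9* (-1.02) and *Mme* (-0.78), lower in males, and *Nt5e* (0.72), higher, whose call was lost with the values as deposited (adjusted p = 0.0527), without U9-KO M 1 (adjusted p = 0.0523) and without WT M 2 (adjusted p = 0.0632). *Itgb1* (-0.17) and *Eng* (-0.013), the most abundant of that list, were not called. All of these are log2 fold changes of males over females, in limma's test.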

How the data were processed

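The authors sequenced whole pWAT RNA of 17 mice with a stranded protocol, 1 library per mouse. Per the methods, reads were trimmed with trim_galore, aligned with STAR and counted per gene with summarizeOverlaps in Union mode. The submitters' processing notes list STAR 2.7.3a, DESeq2 1.28.1 and GRCm38. The strand setting of the counting is not given in the sources used here. The deposited unit is treated as a score, since the authors scaled read counts by size factors and then rounded them. Scaling seems to have been done within each sex, as a library's median ratio to the geometric mean of its own sex was 1.003 to 1.006, while the ratio to all 17 lay between 1.03 and 1.06 for females and between 0.948 and 0.963 for males. As these are not raw counts, no count model was used. The series table repeats the single libraries and was not used.

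Genes were named from GENCODE release M21 (55141 of 55401), with positions and summed exon length on GRCm38. limma 3.58.1 in R 4.3.3 was run with a trended prior variance on log2 values after adding 1, for genes with a total of at least 10, with Benjamini-Hochberg adjustment over all genes tested and a threshold of 0.05. This scale understates changes of low genes. Females and males were fitted apart, and all 17 mice together for the difference between the sexes and for males versus females. Tables were made with pandas 2.3.3 and numpy 2.4.6 in Python 3.11.15. The fits were tested on simulated data. Each of the 29 pairs of mice of a group differed in at least 24469 genes, so no library was a copy of another. Same-numbered mice did not deviate together (correlations -0.445 to 0.11 in females, -0.117 to -0.0105 in males), so no pairing was used. Mouse numbers are those of the sample labels. The column headers of 2 male libraries give other numbers (5 for U9-KO M 4, 4 for WT M 3), by which WT M 3 and U9-KO M 3 would share none.

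The members, the related lists and the motifs were chosen with earlier results of these data known. Named from the lists were the 2 most abundant genes and up to 4 called genes of largest change, all PDGF ligands, *Adipoq*, *U90926*, and the 5 genes most like *Pdgfra*. The antisense and neighbouring genes were named for their position. Alternatives were other filters, pseudocounts and scalings, no trend, a robust prior, a block for the replicate number, an ovary marker covariate, all libraries in 1 fit, WT mice only, each mouse left out, and, added after the data were seen, no females rich in ovary markers.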

Additional observations from a re-analysis of the deposited data

Results flagged for a closer look

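In 30 groups of 4 or 5 mice, where chance gives about 1.5 such cases, 2 mice stood far from the rest of their group for a progenitor gene. *Cd34* was 1999 in U9-KO M 4, where the other U9-KO M mice had 3408 to 3513. *F3* was 2266 in U9-KO F 4, where the other U9-KO F mice had 1097 to 1197.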

How the results depend on the processing

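Several calls and signs depended on the settings. In females 1 gene was called with no trend, and in males 1 with no trend and between 0 and 71 when 1 mouse was left out, the 71 without WT M 1, and 0 members were called in any of these fits. For the difference between the sexes 1 gene was called with no filter. Between males and females, the WT mice alone gave 4994 genes and 1 member called lower (*Pi16*), and leaving out 1 mouse gave between 1 and 2 members called higher. Members at an unadjusted p under 0.05 numbered 2 in males with a mean of at least 10 (1390 of 16564 genes). They also numbered 2 with a pseudocount of 5 (1682 of 21930 genes) or quantile normalization (1672 of 21930 genes). For the difference between the sexes they numbered 0 with the replicate block (777 of 26289 genes). The calls of *Cd34* were also lost with no filter, with no trend and with the replicate block. Of the genes of the lists, *Efhd1* (adjusted p = 0.0568), *Sparc* (0.0614) and *Ogn* (0.0712) lost their call with the block, *Sparc* also with the values as deposited (0.145) and without both females highest in ovary markers (0.0753), and *Efhd1*, *Cd55*, *Bmp7*, *Bgn*, *Sparc*, *Ogn* and *Nt5e* with the WT mice alone. *Itgb1* was called with the values as deposited (0.0068), after quantile normalization (0.0125) and without WT M 2 (0.0371).

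Some signs turned. Without both females highest in ovary markers, the log2 fold change in females was -0.11 for *Dpp4*, -0.087 for *Ly6a*, 0.00031 for *Cd34* and -0.0011 for *Pdgfb*, and that of males over females was -0.032 for *F3*. For *Dpp4* in females it was -0.0066 after quantile normalization and -0.040 with the ovary marker covariate. For *Pdgfra* in males it was 0.00013 with TMM scaling. With the replicate block it was -0.013 for *F3* and -0.035 for *Fap* in males, 0.0019 for *Cd34* in the difference between the sexes, and 0.00073 for *Dpp4* and 0.013 for *Fap* between males and females. The block added no call among the members, and with it *Dpp4* and *Cd34* in males were -0.075 and -0.027. Males over females, quantile normalization gave -0.062 for *F3*, -0.19 for *Dcn*, 0.079 for *Fap* and -0.049 for *Sparc*, the values as deposited gave -0.11 for *F3* and -0.018 for *Pdgfc*, and the WT mice alone gave 0.17 for *Dpp4*, -0.10 for *F3* and 0.00032 for *Eng*. The cause was not tested.

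With 1 mouse left out, log2 fold changes in females ran from -0.040 to 0.0082 for *Pdgfrb*, -0.23 to 0.13 for *Dpp4*, -0.32 to 0.12 for *Pi16*, -0.14 to 0.15 for *Ly6a*, -0.11 to 0.093 for *Cd34*, -0.059 to 0.21 for *Dcn* and -0.0069 to 0.16 for *Pdgfb*. In males they ran from -0.092 to 0.090 for *Pdgfra*, -0.11 to 0.58 for *Pi16*, -0.077 to 0.11 for *F3*, -0.035 to 0.13 for *Fap*, -0.15 to 0.038 for *Pdgfb* and -0.12 to 0.071 for *Pdgfc*. For the difference between the sexes they ran from -0.085 to 0.60 for *Pi16*, -0.43 to 0.022 for *Cd34* and -0.10 to 0.058 for *Pdgfa*, and for males over females from -0.13 to 0.12 for *Dpp4*, -0.046 to 0.11 for *F3*, -0.14 to 0.0038 for *Fap* and -0.057 to 0.018 for *Eng*. Read depth is unknown, and 3 or 4 males per genotype limit what the male fits can show.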
